A study of Mus musculus with 28 samples.

Results

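The genotype difference described here is wild-type PKR (WT) against PKR mutated in each double-stranded RNA-binding motif (RM), averaged over 4 treatment-dataset strata: mock of dataset A, palmitate of dataset A, mock of dataset B and palmitate of dataset B. It rests on 12 WT and 12 RM libraries, 24 of the 28 libraries of the series. The members are the features whose log2 (WT / RM) had 1 sign in all 4 strata, 3736 of the 12683 features tested. The tables hold 30210 features, of which 17527 did not pass the filter on low counts and have no value here. The other side of the description is the classes of RNA whose difference had opposite signs in datasets A and B.

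PKR was immunoprecipitated from lysates of mouse embryonic fibroblasts (MEFs), and the recovered RNA was fragmented and sequenced. Per the labels, the WT cells carry wild-type PKR and the RM cells a PKR with a mutation in each of its RNA-binding motifs, and cells of each genotype were mock-treated or given 0.1 mM palmitic acid, a saturated fatty acid. Datasets A and B each held 3 libraries per genotype and treatment, 8 groups in all, called biological replicates in the labels; the column names of dataset B carry the mark 2hr, which the sources used here do not explain. Both genotypes are MEFs reconstituted with a PKR construct, so the controls carry an introduced PKR too; how many lines or clones stand behind each genotype is not given in the sources used here, and a difference between the 2 cell populations and a difference made by the mutation cannot be told apart. Input RNA was not analysed here, so RNA abundance in the cells and recovery with PKR cannot be told apart in any value below.

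PKR, encoded by Eif2ak2, is a kinase that binds double-stranded RNA through tandem binding motifs, dimerizes and phosphorylates the translation initiation factor eIF2 alpha, which lowers protein synthesis. It is best known as an interferon-induced antiviral sensor, and cellular duplexes, among them mitochondrial transcripts of opposite strands, snoRNAs and structured noncoding RNAs, can also bind it. In fibroblasts it is present at a basal level and is raised by interferon.

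Library totals ran from 254762 counts in RM palmitate replicate 2 of dataset A to 8036622, and levels below are CPM (a feature's counts relative to the library total) scaled with TMM factors, which ran from 0.511 to 0.888 in dataset A and from 0.978 to 1.75 in dataset B. A single read in the shallowest library is worth 4.94 CPM, so its zeros say little about low features. In dataset B replicates 2 and 3 of the RM palmitate group also stood apart from replicate 1, and results that rest on these 3 libraries are given with and without them. Of 12 fibroblast markers 11 were tested, and their summed level was 7703 to 24647 CPM in WT and 8994 to 26078 CPM in RM libraries. The 14 macrophage and lymphocyte markers summed to 0.615 to 7.81 CPM in WT and 2.49 to 8.90 CPM in RM, with 10 of the 14 under a mean of 1 count, and 0 of the 2 tested were called. Markers of other lineages did differ. The chondrogenic and osteogenic markers had a summed level of 64.7 to 530 CPM in WT and 83.1 to 413 CPM in RM. Of 4 tested, Acan (-0.79) and Runx2 (-0.42) were called lower with WT and Spp1 (0.29) higher. Without the 3 libraries Spp1 was at 0.22. Of 4 neural markers (10.6 to 67.7 and 15.7 to 83.9 CPM) Nes (-0.69) and Nefl (-1.32) were called lower and Tubb3 (0.86) higher, and the 1 endothelial marker tested, Tek, was lower (-1.15). Among 2 epithelial, 2 myogenic and 1 adipogenic markers tested, Krt19 (0.66) and Acta1 (0.70) were called higher and Lpl (-0.29) lower. Krt19 was at 0.545 without the 3 libraries. Whether the lineage of the cells takes part in any difference below was not tested. In such bulk lysates fewer cells of a type and less RNA per cell cannot be told apart.

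The PKR transcript itself was counted in every library. Eif2ak2 (mm9 chr 17, 79251904 to 79281913, minus strand) had a lowest, median and highest level of 10.5, 12.3 and 23.3 CPM in the 6 WT libraries of dataset A against 11.7, 15.96 and 25.1 CPM in RM, and of 4.78, 5.12 and 6.33 CPM in WT of dataset B against 6.61, 6.77 and 14.8 CPM in RM. The genotypes overlapped in dataset A and did not overlap in dataset B. Averaged over the strata its log2 (WT / RM) was -0.47 ± 0.14 (SE, adjusted p = 0.0123), and it was -0.31 (adjusted p = 0.126) without the 3 RM palmitate libraries named above. The mutations are not visible in counts per gene, so this level does not check the labels. Reads of features on the opposite strand, such as n-R5s29, lie in the same interval, and whether counting used strand is not given in the sources used here.

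Of all features tested, 3238 (25.5%) differed between the genotypes in the average at an adjusted p under 0.05, 1574 higher with WT (12.4%) and 1664 lower (13.1%). Scaling by total counts in place of TMM gave 708 higher and 1352 lower, with an all-feature median that shifted by -0.29 (dataset A) and 0.20 (dataset B). Features of 1 sign in all 4 strata made up 29.5% of those tested, 1904 higher and 1832 lower, and 2262 of them also passed the test: 1140 higher with WT (8.99% of features tested) and 1122 lower (8.85%). Among called features 69.9% had 1 sign, 871 went one way in 3 of the strata and 105 were divided evenly. The sign alone is a weak criterion: the smallest of a member's 4 values had a median of 0.13 in log2 units, and it was under 0.1 for 1512 members. A firmer set is the 156 members (1.23% of features tested) that were called, had a mean of at least 10 counts on the higher side and showed no overlap of WT and RM libraries in any stratum, 123 higher and 33 lower. That set depended on the shallowest library, in which a low feature often has no read: without RM palmitate replicate 2 of dataset A it held 252 features, 145 higher and 107 lower, and without the 3 libraries that stood apart 361, 180 higher and 181 lower.

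The datasets share no library, so each can be read against the calls of the other. In dataset A alone 1990 features (15.7%) were called, 1108 higher and 882 lower (344 and 2131 with total-count scaling), and 1460 of them (73.4%) had the same sign in dataset B. In dataset B 2078 (16.4%) were called, 903 higher and 1175 lower (1297 and 602 with total-count scaling, and 1019 in all without the 3 RM palmitate libraries), of which 1479 (71.2%) had the same sign in dataset A. Over all tested features the share with the same sign was 60.3%. Only 396 features were called in both with the same sign, 19.9% of the calls of dataset A and 19.1% of those of dataset B, 207 of them higher with WT and 189 lower. A further 61 (0.481%) were called in both with opposite signs, and all 61 passed the genotype by dataset interaction, the test of the difference itself, which called 1000 features (7.88%), 679 with the higher value in dataset A (5.35%) and 321 in dataset B (2.53%). With total-count scaling the interaction counts were 383 and 2258, and the count of opposite calls was 102; it was 92 without RM palmitate replicate 1 of dataset B and 32 without the 3 RM palmitate libraries.

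**Figure D1:**
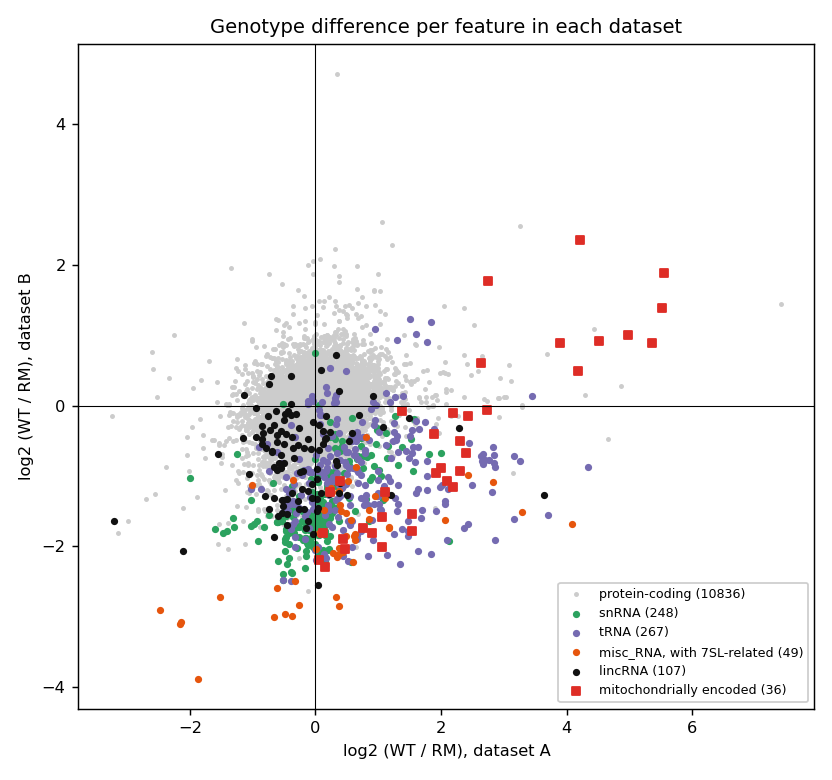
Each point is a tested feature of the classes shown. The x axis gives its log2 (WT / RM) in dataset A and the y axis that in dataset B. Grey points are protein-coding features, and colours mark snRNAs, tRNAs, miscellaneous RNAs, lincRNAs and mitochondrially encoded RNAs. Features with the same sign in both datasets lie in the lower left and upper right, and those with opposite signs in the other corners. Calls are not marked.

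No feature was called for a genotype by palmitate interaction averaged over the datasets by edgeR's quasi-likelihood test (0% of 12683, 1337 at an unadjusted p under 0.05), while DESeq2 called 45 (1208 at an unadjusted p under 0.05) and edgeR called 35 without RM palmitate replicate 1 of dataset B. The 4 strata alone called 760 features in mock of dataset A (5.99%), 697 in palmitate of dataset A (5.50%), 1347 in mock of dataset B (10.6%) and 871 in palmitate of dataset B (6.87%). Leaving out 1 library moved these counts between 333 and 1101, 353 and 1068, 467 and 1777, and 150 and 1496, the lowest without WT mock replicate 2 of A, WT palmitate replicate 2 of A, RM mock replicate 3 of B and RM palmitate replicate 3 of B. With the 3 RM palmitate libraries left out, 1 RM library remained in palmitate of dataset B and 4 features were called there, so the set called in every stratum depends on them.

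The features called in each of the 4 were 12, and their names were looked up after their values were seen. Of these, 8 were higher with WT: Lrrn4cl, the mitochondrial tRNA mt-Tq, the membrane protein gene Itm2a, Pamr1, the thioredoxin inhibitor Txnip, the actin regulators Twf2 and Coro1b, and the kinesin adaptor Kifap3. The other 4 were lower: the kinesin Kif21b, Limch1, the DNA demethylase Tet3 and the mechanosensitive channel Piezo2.

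Lrrn4cl (mm9 chr 19, 8925275 to 8928399, plus strand) had the widest difference among them. Its levels (lowest, median, highest of 6) were 3.63, 7.92 and 12.2 CPM in WT and 0, 1.12 and 4.95 CPM in RM of dataset A, and 3.93, 6.37 and 7.49 CPM in WT and 0.756, 1.03 and 1.51 CPM in RM of dataset B. In dataset A a single RM library, the shallowest, reached into the WT range with what amounts to 1 read, and in dataset B the genotypes were apart. The average log2 (WT / RM) was 2.90 ± 0.24 (SE, adjusted p = 7.1e-09). Coro1b, an actin filament regulator, was better counted, at 56.8, 68.3 and 89.7 CPM in WT against 33.8, 37.1 and 41.1 CPM in RM of dataset A, and 52.8, 59.9 and 62.7 CPM against 26.2, 37.5 and 45.8 CPM in dataset B. No RM library reached any WT library of its dataset, and the 2 datasets gave nearly the same difference, 0.87 and 0.69. Itm2a (mm9 chr X, 104592438 to 104598715, minus strand) was at 51.3, 66.5 and 71.8 CPM in WT and 14.9, 23.7 and 29.5 CPM in RM of dataset A, and at 11.6, 16.5 and 25.5 against 4.94, 8.05 and 13.0 CPM in dataset B. In dataset B the genotypes overlapped across treatments but not within one; the average was 1.20 ± 0.10 (SE, adjusted p = 8.5e-09).

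On the lower side, Kif21b had 1.39, 2.51 and 2.94 CPM in WT and 0, 5.67 and 9.78 CPM in RM of dataset A, and 2.20, 2.51 and 3.65 CPM in WT and 9.07, 10.5 and 12.9 CPM in RM of dataset B. WT levels were alike in both datasets, and in dataset B every RM library lay well above every WT library. Its average was -1.75 ± 0.16 (SE, adjusted p = 2.0e-08), with -1.54 in dataset A and -1.96 in dataset B. Limch1, an actin and myosin regulator, was at 13.2, 23.1 and 25.5 CPM in WT and 14.9, 42.7 and 53.8 CPM in RM of dataset A and at 18.7, 20.5 and 26.3 against 42.0, 49.1 and 66.9 CPM in dataset B. Its average was -1.15 ± 0.11 (SE, adjusted p = 1.9e-08), and Tet3 followed with -1.06 ± 0.11 (SE, adjusted p = 1.3e-07).

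The 12 highest and 12 lowest named members without overlap in any stratum held further genes of varied function. On the higher side these were Arpin (1.23), an inhibitor of the actin-nucleating Arp2/3 complex, the small GTPase Rab3d (1.08), AW551984 (1.001), the ribonuclease inhibitor Rnh1 (0.94), Cnnm2 (0.94) and Suclg1 (0.91), a citric acid cycle enzyme. On the lower side they were Msantd3 (-0.89), the ribosomal protein gene Rpl17 (-0.84), Zfp414 (-0.77), Eya4 (-0.72) and Brd8 (-0.72). Brd8 was at -0.48 without the 3 RM palmitate libraries. Its lowest, median and highest RM levels in dataset A were 37.2, 44.4 and 252 CPM. The Rpl17 value is uncertain, since the near-copy Rpl17-ps3 (-0.82) may share its reads.

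**Figure D2:**
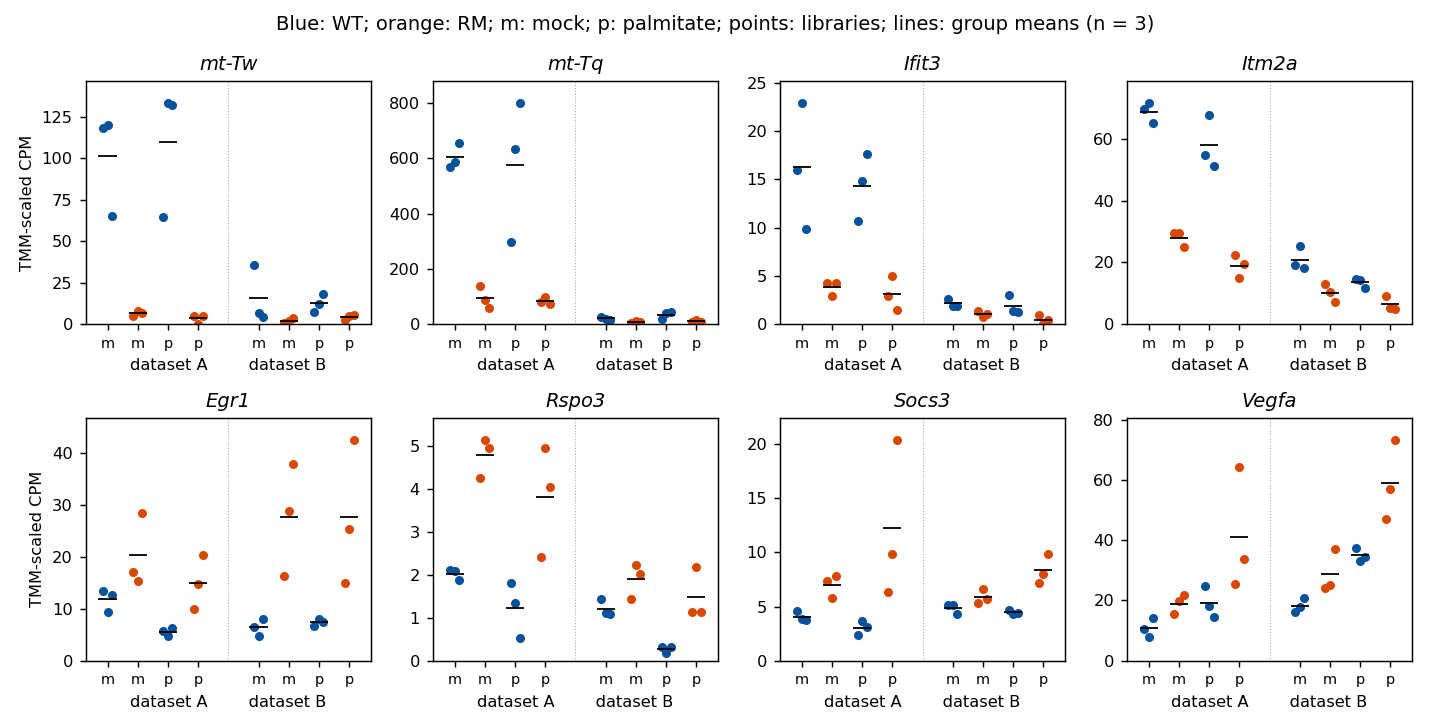
TMM-scaled CPM of 8 members in each library, with 3 points per group and a line at the group mean, the 4 groups of dataset A to the left of the dotted line and those of dataset B to its right. In the upper panels (mt-Tw, mt-Tq, Ifit3, Itm2a) the WT points lie above the RM points of their stratum, and in the lower panels (Egr1, Rspo3, Socs3, Vegfa) below them.

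Mitochondrial transcripts supplied the highest named member without overlap in any stratum, mt-Tw, the tRNA for tryptophan (mm9 chr M, 4950 to 5016, plus strand), and mt-Tq, the tRNA for glutamine (3772 to 3842, minus strand), was another. Their sequences are shown as GENCODE release 21 gives the transcripts, with the anticodon in capitals, since they are the mitochondrial members whose genotypes did not overlap in any stratum.
mt-Tw: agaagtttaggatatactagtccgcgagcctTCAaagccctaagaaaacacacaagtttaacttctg
mt-Tq: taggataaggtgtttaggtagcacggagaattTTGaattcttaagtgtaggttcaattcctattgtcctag
In the 6 WT libraries of dataset A mt-Tw had 64.3, 119 and 133 CPM (lowest, median, highest), against 0, 5.08 and 8.04 CPM in RM. In dataset B it had 4.28, 9.62 and 35.7 CPM in WT and 0.804, 3.07 and 5.70 CPM in RM. The gap was wide in dataset A and narrow in dataset B, where genotypes were apart only within a treatment. The average log2 (WT / RM) was 3.28 ± 0.38 (SE, adjusted p = 1.7e-05). For mt-Tq the levels were 296, 610 and 800 CPM in WT against 58.4, 83.9 and 138 CPM in RM of dataset A, and 15.7, 23.2 and 42.3 against 4.58, 6.82 and 13.8 CPM in dataset B. No RM library reached a WT library of its dataset, and the difference was called in each stratum (2.67, 2.83, 1.65 and 1.90, average 2.26 ± 0.20 SE, adjusted p = 2.5e-07).

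Only 7 of the 36 mitochondrially encoded RNAs tested were members: mt-Ti, mt-Nd6, mt-Tw, mt-Ts1, mt-Nd5, mt-Tp and mt-Tq, all higher with WT. The steepest was mt-Ti, the tRNA for isoleucine, with log2 (WT / RM) 5.55 in dataset A and 1.88 in dataset B. Next came mt-Nd6, a complex I subunit and the mitochondrial messenger encoded on the strand opposite to the others, with 5.52 in dataset A and 1.39 in dataset B. Its WT libraries of dataset A held 150, 313 and 456 CPM and its RM libraries 3.78, 6.75 and 39.6 CPM, and in dataset B the values were 17.9, 32.3 and 71.3 against 4.82, 10.98 and 35.3 CPM. The genotypes were apart in dataset A and overlapped in dataset B. Members lie side by side or overlap on opposite strands: mt-Tq overlaps mt-Ti, mt-Nd6 overlaps mt-Nd5 (4.98 and 0.997), and mt-Ts1 (5.35 and 0.88) overlaps mt-Co1. Without known strand use, reads within an overlap cannot be assigned to 1 of the pair. Reads outside the overlaps do not have this limit. Of the 9 mitochondrial features annotated on the minus strand 4 were members and they had medians of 2.75 and 0.49 in datasets A and B. Of the 27 on the plus strand 3 were members, with medians of 1.53 and -1.15. The 2 ribosomal RNAs stood at the other end, mt-Rnr1 with 0.05 and -2.20 and mt-Rnr2 with 0.15 and -2.29.

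As a class, therefore, mitochondrial RNAs reversed. All 36 were higher with WT in dataset A on average, with a median of 2.05, and 10 of 36 were in dataset B, with a median of -0.91. Called were 23 higher and 0 lower in dataset A (backgrounds 8.74% and 6.95%) and 4 higher and 11 lower in dataset B (backgrounds 7.12% and 9.26%), and 30 of the 36 passed the interaction test, against 7.88% of all features. The stratum medians were 2.20 in mock and 2.001 in palmitate of dataset A, 0.58 in mock and -2.09 in palmitate of dataset B, so only palmitate of dataset B had a negative median. In that stratum mitochondrial RNAs took 7.70% ± 3.26 of counts in RM against 1.26% ± 0.30 in WT (SD, n = 3). In the other strata the shares of RM and WT were 1.32% ± 0.50 and 1.82% ± 0.47 (mock of dataset A), 1.58% ± 0.64 and 1.701% ± 0.52 (palmitate of dataset A), and 2.37% ± 1.02 and 1.11% ± 0.34 (mock of dataset B). Without the 3 RM palmitate libraries that stood apart the dataset B median was -0.32 and 2 members in place of 11 were called lower. The mitochondrial tRNA class alone had a median of 2.19 in dataset A and -0.11 in dataset B, and 0.38 in dataset B without those libraries.

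Interferon-stimulated genes, the family to which Eif2ak2 itself belongs, were called higher with WT far more often than lower. Of 49 tested, 23 were called higher and 1 lower in the average (backgrounds 12.4% and 13.1%), the lower one being Eif2ak2; the median was 0.37, against -0.01 over all features. In dataset A 23 were called higher and 0 lower (backgrounds 8.74% and 6.95%), with a median of 0.57. In dataset B 4 were called higher and 5 lower (backgrounds 7.12% and 9.26%). The dataset B median was 0.12, and -0.08 without the 3 RM palmitate libraries. With total counts, which shifted all features down in dataset A and up in dataset B, the medians were 0.30 and 0.32. They are therefore not on the scale of the medians above. The calls were then 14 higher and 0 lower in dataset A and 6 and 0 in dataset B. Called higher in the average were 19 without those libraries, 19 with DESeq2 and 15 with total-count scaling. The family member with no overlap in any stratum was Ifit3, an antiviral tetratricopeptide protein (mm9 chr 19, 34658021 to 34663221, plus strand). Its levels were 9.86, 15.4 and 22.9 CPM in WT and 1.49, 3.58 and 4.95 CPM in RM of dataset A, and 1.19, 1.89 and 3.02 CPM in WT and 0, 0.83 and 1.37 CPM in RM of dataset B. The average was 1.88 ± 0.23 (SE, adjusted p = 1.7e-06), and the neighbouring near-copy Ifit3b, whose reads may be shared with it, had 1.84. Ifit1 (34715361 to 34724499 on the same chromosome), which binds viral RNA ends, was at 12.7, 18.1 and 22.2 CPM in WT and 2.23, 3.92 and 5.16 CPM in RM of dataset A and at 0.73, 1.67 and 2.33 against 0, 1.05 and 1.45 CPM in dataset B. Its genotypes were apart in dataset A and overlapped in dataset B, and its difference between the datasets passed the test (1.63 ± 0.46 SE, adjusted p = 0.0247).

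Stretches of the Ifit1 and Ifit3 promoters are shown because these 2 members moved together and carry the letters bound by interferon-regulated factors. They come from RefSeq on GRCm38.p6, plus strand, at chr19:34640765-34640854 for Ifit1 and chr19:34583353-34583442 for Ifit3, and capitals mark matches of GAAANNGAAA on either strand, which read TTTCNNTTTC here.
Ifit1: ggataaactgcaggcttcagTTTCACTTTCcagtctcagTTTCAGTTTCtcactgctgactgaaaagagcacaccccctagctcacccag
Ifit3: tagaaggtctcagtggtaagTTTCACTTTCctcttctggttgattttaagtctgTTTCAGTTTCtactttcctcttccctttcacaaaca
Each stretch holds 2 matches, and the motif occurs in the 250 bases upstream of 3.46% of 27025 mouse genes. Such a match is a description of letters and not of a bound site. A tally over the interferon-stimulated list is void, since 38 of its 49 tested members have a promoter in the RefSeq table.

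Of the 23 interferon-stimulated genes called higher in the average, 17 had 1 sign in all 4 strata. Some genes of the family were high in dataset A only. Tapbp, which loads peptides onto MHC class I (mm9 chr 17, 34052844 to 34066235, plus strand, overlapping Zbtb22), had 3.29 in dataset A and 0.01 in dataset B, and the difference passed the interaction test (adjusted p = 2.9e-08). Dtx3l, a ubiquitin ligase, had 1.86 and 0.12 (interaction adjusted p = 6.45e-06), and Oasl2 had 1.93 and -0.27 (interaction adjusted p = 0.00477). Irf7, the factor that amplifies interferon, had 0.93 in dataset A and 1.64 in dataset B, with an average of 1.29 ± 0.41 (SE, adjusted p = 0.0213). In all, 11 of the 49 passed the interaction test, against 7.88% of all features.

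Of 23 glycolysis and hypoxia genes 12 were called higher with WT and 1 lower in the average, against 12.4% and 13.1% of all features, with 11 of the 12 of 1 sign in all strata, and the medians of datasets A and B were 0.37 and 0.34. Txnip, an inhibitor of thioredoxin and of glucose uptake, had 61.0, 100 and 153 CPM in WT and 19.8, 68.8 and 91.2 CPM in RM of dataset A, and 15.3, 33.9 and 59.0 against 7.25, 16.5 and 31.5 CPM in dataset B. The ranges overlapped over treatments but were apart within each stratum, and the average was 0.83 ± 0.11 (SE, adjusted p = 3.3e-06). The glycolytic enzymes Pfkl (0.53), Pgam1 (0.52), Tpi1 (0.51) and the lactate dehydrogenase Ldha (0.46) passed the test with smaller differences, and Hk2, a hexokinase, was the one called lower (-0.41). The count of higher calls was 11 without the 3 RM palmitate libraries, 13 with DESeq2 and 6 with total-count scaling. Dataset A called 6 higher and 2 lower (8.74% and 6.95% of all features). With total counts, which shifted all features of dataset A down, it called 0 and 4 (median 0.08). Dataset B called 9 and 1 (7.12% and 9.26%), and 4 and 2 without the 3 libraries. Of 18 genes of fatty acid use 5 were called higher (Hadhb 0.55, Cpt1a 0.50, Hadha 0.49, Plin2 0.47, Acadm 0.37; enzymes of beta-oxidation and a lipid droplet protein) and Ppard, a fatty acid receptor, was called lower (-0.54), against the same 12.4% and 13.1%; 3 were called higher with total-count scaling.

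Cell structure and replication genes showed smaller differences. Among 39 actin and adhesion genes 11 were called higher and 3 lower, against 12.4% and 13.1% of all features, with a median of 0.15, and they included Itgb3 (0.71), Actb (0.51) and Actg1 (0.49); 4 were called higher with total-count scaling. For 32 DNA replication genes the counts were 8 and 1, read against the same shares, and the median 0.19, with Ccne2 at 0.62 and Tyms at 0.49, and E2f2 lower at -1.63. With total-count scaling 3 were called higher, and 5 with DESeq2 or without the 3 libraries. Without those libraries dataset B called 0 in place of 4 and had a median of -0.02, and with total counts the dataset A median was 0.00. Among 19 imprinted genes 5 were called higher and 1 lower (against 12.4% and 13.1% of all features), led by the growth inhibitor Cdkn1c, with 2.03 in dataset A and 0.48 in dataset B (interaction adjusted p = 0.000565), and by Mest with 0.90 and 0.79.

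Immediate early genes, which are transcribed within minutes of a growth or stress stimulus, were called lower with WT more often than higher. Of 25 tested 12 were called lower and 1 higher in the average (backgrounds 13.1% and 12.4%), 11 of the 12 with 1 sign in all strata. The median was -0.40 in both datasets, and 12, 11 and 11 were called lower without the 3 libraries, with DESeq2 and with total-count scaling. The split by dataset moved more: 4 lower in dataset A and 9 in dataset B (6.95% and 9.26% of all features) became 11 and 5 with total counts. That scaling moved the lower calls over all features the same way, to more in dataset A and fewer in dataset B. Egr1 (mm9 chr 18, 35020861 to 35024638, plus strand), a zinc-finger factor, had 4.70, 7.79 and 13.5 CPM in WT and 9.89, 16.2 and 28.5 CPM in RM of dataset A, and 4.73, 7.08 and 8.04 against 14.9, 27.1 and 42.6 CPM in dataset B. Dataset B kept the genotypes fully apart, and dataset A did within each treatment. The average was -1.55 ± 0.20 (SE, adjusted p = 2.6e-05). Egr2 (-1.10), the mRNA-decay factor Zfp36 (-0.99) and Ier3 (-0.88) had 1 sign throughout. Fos went with dataset B alone, at -0.12 in dataset A and -2.63 in dataset B (interaction adjusted p = 0.0107), and Klf2 was the one called higher, at 0.99.

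Of 38 growth factors, receptors and cytokines 14 were called lower with WT and 5 higher, against 13.1% and 12.4% of all features. Dataset A called 11 lower and 1 higher (6.95% and 8.74% of all features). Dataset B called 9 lower and 6 higher (9.26% and 7.12% of all features). With total counts, which shifted all features of dataset B up, dataset B called 3 lower and 8 higher. Its median was then 0.10, still below that of all features. Rspo3, an agonist of Wnt signalling (mm9 chr 10, 29172915 to 29255673, minus strand), had 0.518, 1.85 and 2.10 CPM in WT and 2.42, 4.60 and 5.14 CPM in RM of dataset A, and 0.171, 0.712 and 1.43 against 1.13, 1.73 and 2.23 CPM in dataset B. Its average was -1.34 ± 0.21 (SE, adjusted p = 4.1e-05). Vegfa, the angiogenic factor, was at 7.98, 14.3 and 24.9 CPM in WT and 15.4, 23.6 and 64.4 CPM in RM of dataset A and at 16.3, 27.0 and 37.3 against 24.2, 42.1 and 73.3 CPM in dataset B. Palmitate libraries were the higher ones in both genotypes, and within each treatment the genotypes did not overlap; the 4 stratum values lay between -0.83 and -0.65. Hbegf (-0.96), a ligand of the EGF receptor, and the neurotrophin Bdnf (-0.74) also had no overlap in any stratum. Socs3, a feedback inhibitor of cytokine signalling, averaged -1.01 ± 0.16 (SE, adjusted p = 4.2e-05). Among 17 nuclear factor kappa B targets 4 were called lower and 2 higher (against 13.1% and 12.4%), with medians of -0.13 in dataset A and 0.03 in dataset B, the lower ones being the cytokine Lif (-1.15), the chemokine Cxcl1 (-1.14), the prostaglandin synthase Ptgs2 (-0.89) and the coactivator Bcl3 (-0.87). Apart from the nuclear factor kappa B targets, Bmp2 (1.11), Sfrp2 (0.63) and Igfbp4 (0.59) were higher with WT.

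Of 21 genes for PKR, its partners and eIF2, 6 were called lower with WT and 3 higher, the higher ones near the 12.4% of all features and the lower ones above the 13.1%. Ppp1r15a (GADD34), the subunit that directs a phosphatase to eIF2 alpha, was lower at -0.95 ± 0.22 (SE, adjusted p = 0.00229), with values of 1 sign in the 4 strata. Its constitutive counterpart Ppp1r15b had 0.98 in dataset A and -0.03 in dataset B (interaction adjusted p = 0.00249). Eif2s1, which encodes eIF2 alpha, had 0.39, and Ilf2, a partner of double-stranded RNA-binding proteins, 0.38. Of 45 collagen and matrix genes 11 were called lower and 4 higher, against 13.1% and 12.4% of all features, with Col15a1 at -1.25, Fbn2 at -0.96 and Fbln5 at 0.71.

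**Figure D3:**
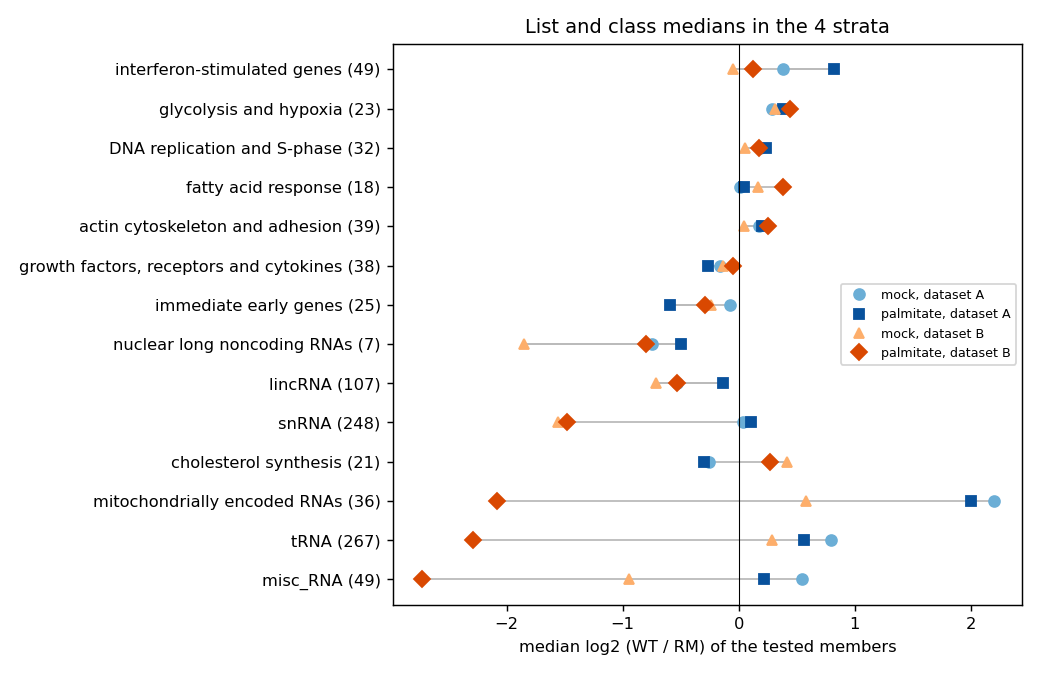
Median log2 (WT / RM) of the tested members of 14 gene lists or RNA classes, with the number of members in brackets and 1 symbol per stratum. Glycolysis genes lie to the right of 0 and immediate early genes and lincRNAs to the left in all 4 strata, whereas tRNAs, miscellaneous RNAs, mitochondrial RNAs and cholesterol synthesis genes spread over both sides.

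Of 7 long noncoding RNAs retained in the nucleus 4 had 1 sign in all strata, and these 4 were called, all lower with WT: Neat1 (-1.11 ± 0.18 SE), Xist (-0.93 ± 0.16), Meg3 (-0.93 ± 0.18) and Malat1 (-0.81 ± 0.21), with adjusted p of 6.2e-05, 0.000175, 0.000494 and 0.00497. Without the 3 RM palmitate libraries Malat1 lost its call (adjusted p = 0.0572) and the other 3 kept it. Neat1, the scaffold of paraspeckles, had 361, 517 and 928 CPM in WT and 873, 1015 and 1185 CPM in RM of dataset A, and 31.8, 172 and 437 against 249.6, 377 and 623 CPM in dataset B. The genotypes overlapped by a little in dataset A and by more in dataset B. More widely, 42 of 107 lincRNAs were called lower and 1 higher (backgrounds 13.1% and 12.4%), the class medians were -0.35 (A) and -0.64 (B), and 26 of the 42 had 1 sign in all strata. Without the 3 RM palmitate libraries 21 lincRNAs were called lower. Small nuclear RNA features were called lower in 154 of 248 cases and higher in 0, against the same 13.1% and 12.4% of all features. But 47 of the 154 had 1 sign, since the class stood at 0.06 (dataset A) and -1.56 (dataset B). The class median of the average was -0.77, and -0.50 without the 3 libraries.

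Of 200 miRNA genes tested 21 (10.5%) were called lower and 2 (1.0%) higher, below the 13.1% and 12.4% of all features, and 10 of the 21 had 1 sign in all strata. The wider annotation class of 237 features had 27 lower and 19 higher. The 4 with the smallest p were Mir5125, Mir3080, Mir763 and Mir5101. The tables count hairpin genes and not mature arms, and Mir5125, Mir763 and Mir5101 lie inside Srrm2, Hmga2 and Syne2 on the same strand, so reads of the host transcript may be counted with them. Their mature forms in RefSeq are shown with the seed (bases 2 to 8) in capitals, to show that the 4 genes do not share a seed; all 5 seeds differ.
mmu-miR-5125: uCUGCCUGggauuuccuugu
mmu-miR-3080-5p: uGAAGCGCcuguucuuggau
mmu-miR-3080-3p: uCCUCGGGcaaagcgcuugaca
mmu-miR-763: cCAGCUGGgaagaaccaguggc
mmu-miR-5101: uUUGUUUGuuuugcugaugcag
Mir5125 had 1.56, 4.33 and 5.71 CPM in WT and 4.95, 10.2 and 13.2 CPM in RM of dataset A, and 0.101, 1.36 and 5.86 against 3.86, 5.98 and 8.34 CPM in dataset B, with an average of -1.75 ± 0.19 (SE, adjusted p = 3.2e-07). The genotypes overlapped slightly in each dataset. Mir3080 averaged -2.32, Mir763 -1.46 and Mir5101 -0.96. The medians of the 200 genes had opposite signs within dataset B, 1.61 in mock and -1.53 in palmitate, while dataset A stood at -0.14 and -0.30.

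Members were unevenly spread over the chromosomes, a pattern chosen for description after the values were seen. Among protein-coding features, 110 of 389 on chromosome 19 were called higher with WT and 22 lower, against 13.4% and 11.7% of all protein-coding features, and the median was 0.17, with 0.12, 0.10, 0.21 and 0.25 in mock and palmitate of dataset A and of dataset B. The opposite held on chromosome 18, where 12 of 281 were called higher and 85 lower (median -0.18, strata -0.24, -0.15, -0.15 and -0.15). On chromosome 17 the counts were 32 and 112 of 516 (median -0.12, strata -0.12, -0.13, -0.15 and -0.10). Chromosome 9 had 122 higher and 55 lower of 612 (median 0.09). The no-overlap members were 1.23% of all features tested, 123 higher and 33 lower. Among protein-coding features they were 18 of 389 on chromosome 19 and 14 of 612 on chromosome 9, all higher with WT. On chromosome 18 they were 8 of 281 and on chromosome 17 2 of 516, all lower, the last below the share of all features. That set depended on the shallowest library, as given above, and its chromosome counts without that library are not given. Calls in these directions were 103, 86 and 108 on chromosomes 19, 18 and 17 without the 3 RM palmitate libraries, and 56, 67 and 85 with total-count scaling. Under that scaling, with its shift of all features, the chromosome 19 median of dataset A was -0.21, and the chromosome 18 and 17 medians of dataset B were 0.04 and 0.09. Members also differed in transcript length as the tables give it: protein-coding members called higher had a median of 2822 bases (1091 genes) and those called lower 5080 bases (958 genes), against 3358 bases over all protein-coding features tested. Whether chromosome or length takes part in any difference above was not tested.

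**Figure D4:**
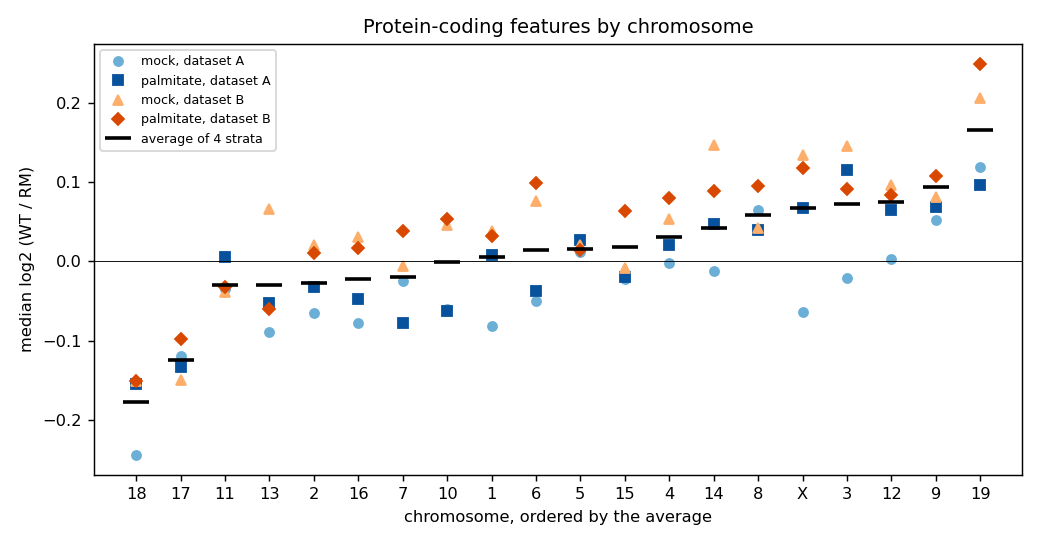
Median log2 (WT / RM) of protein-coding features on each chromosome with at least 100 of them tested, in each of the 4 strata and as the average (black bar), ordered by the average. Chromosomes 18 and 17 lie below 0 and chromosomes 9 and 19 above 0 in every stratum.

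Turning to the reversals, 14 RNA classes had at least 10 members tested, and the medians of 9 lay on opposite sides of the all-feature median in datasets A and B. For protein-coding genes (-0.03 and 0.04) and features missing from the annotation used (0.04 and -0.00) the medians were close to 0. Small nuclear, small nucleolar and small Cajal body RNAs had medians of 0.06, 0.04 and 0.03 in dataset A, so that their reversal rests on a value near 0 there. Leaving out 1 library moved the dataset A median between -0.04 and 0.12 for snRNAs and between -0.24 and 0.23 for snoRNAs. With total counts these 2 medians were -0.24 and -0.24, still above the all-feature median of dataset A, which that scaling shifted down. In 8 of the 9 the class was on the high side in dataset A and on the low side in dataset B, and 4 of the 9 had their mock median of dataset B on the side of dataset A. Nuclear-encoded tRNAs had medians of 0.60 in dataset A and -0.97 in dataset B. Of 267 tested, 63 were called higher and 0 lower in dataset A (backgrounds 8.74% and 6.95%). In dataset B 1 was called higher and 81 lower (backgrounds 7.12% and 9.26%). Their dataset B medians were 0.29 in mock and -2.29 in palmitate, and without the 3 RM palmitate libraries the count called lower there was 8 and the median -0.26. Miscellaneous RNAs, which hold 7SL, 7SK, Y and vault RNA genes and copies, had 0.38 and -1.81, with -0.94 in mock and -2.73 in palmitate of dataset B. Of 49 tested, 41 were called lower in dataset B (9.26% of all features). Without the 3 libraries the dataset B median was -1.02. In palmitate of dataset B miscellaneous RNAs took 3.61% of counts in RM against 0.638% in WT. Their RM and WT shares were 0.851% and 1.11% in mock of dataset A, and 1.11% and 1.03% in palmitate of dataset A. In mock of dataset B these shares were 0.809% and 0.475%. The mean snRNA share was higher in RM in all 4 strata, from 1.08% against 0.859% in mock of dataset A to 3.69% against 1.59% in palmitate of dataset B. In palmitate of dataset A the RM mean of 2.73% rests on the shallowest library (5.78%). The other RM libraries there had 1.01% and 1.39%, and the WT libraries 0.789% to 1.29%. In palmitate of dataset B RM replicate 1, which did not stand apart, had 2.13%, and the WT libraries 1.21% to 1.96%.

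**Figure D5:**
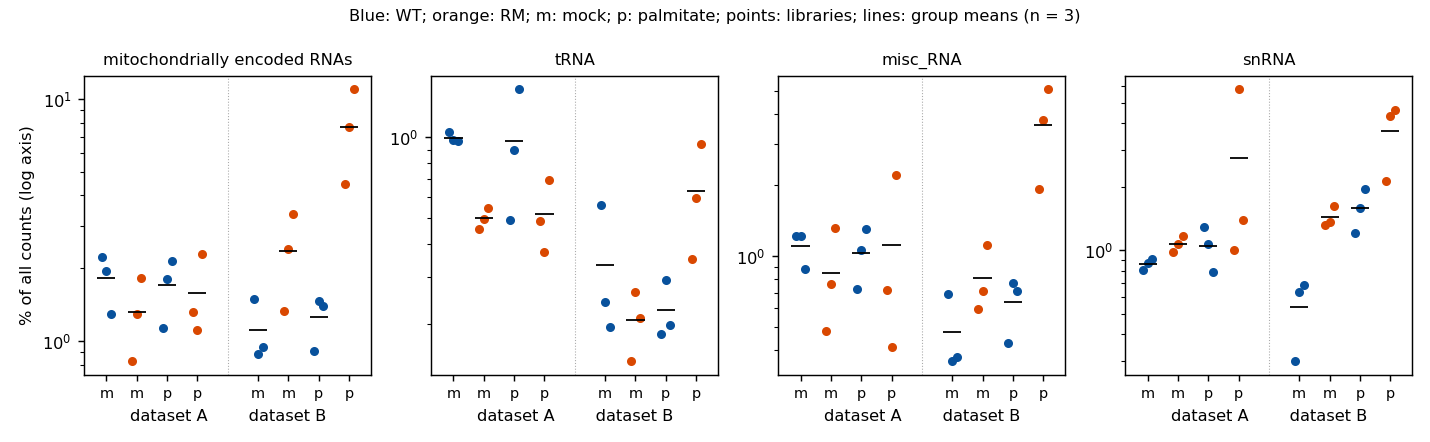
Share of all counts taken by 4 RNA classes in each library, as percent on a log axis, with 3 points per group and a line at the group mean, mock (m) and palmitate (p) of dataset A on the left and of dataset B on the right. Mitochondrial RNAs and miscellaneous RNAs are high in RM palmitate of dataset B, with means of 7.70% and 3.61%.

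The features that reversed most were small RNAs. Of the 54 features called in opposite directions with a mean of at least 10 counts, 13 were tRNA genes, 7 of them for glutamate, and 7 were miscellaneous RNAs, and each of these was higher with WT in dataset A and lower in dataset B. Among the 30 protein-coding ones 12 went this way. Rn7s6, a 7SL RNA (the RNA of the signal recognition particle, which targets secreted proteins to the endoplasmic reticulum), had 279, 427 and 636 CPM in WT and 92.7, 106 and 121 CPM in RM of dataset A, and 65.3, 139 and 201.1 against 160, 278 and 1553 CPM in dataset B. The genotypes were wide apart in dataset A with WT above, and in dataset B overlapped over treatments with RM above. The values were 2.06 and -1.62, and the difference between datasets was 3.68 (adjusted p = 2.1e-06). Without the 3 RM palmitate libraries the Rn7s6 difference was 2.94. Of the miscellaneous RNAs Gm25687 had 4.08 and -1.68 and Gm24812 had 2.83 and -1.09. Their differences between datasets were 5.77 and 3.93, and 4.87 and 3.42 without the 3 libraries. Reads of near-identical copies of such RNAs may be exchanged in counting. A glutamate tRNA gene, chr14.tRNA359-GluTTC, had 66.1, 94.3 and 134 CPM in WT and 22.5, 26.1 and 47.6 CPM in RM of dataset A, and 4.39, 6.79 and 14.4 against 8.20, 28.1 and 88.5 CPM in dataset B. It stood at 1.63 in A and -2.06 in B, and in both treatments of dataset B it was lower with WT (-1.63 in mock and -2.49 in palmitate). Its difference between datasets was 3.69, and 3.11 without the 3 libraries.

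Protein-coding reversals with WT higher in dataset B included a lipid enzyme and secreted factors. Angptl2, a secreted angiopoietin-like protein, had 10.4, 16.1 and 19.5 CPM in WT and 19.8, 21.9 and 23.9 CPM in RM of dataset A, and 30.8, 32.6 and 35.9 against 14.8, 16.4 and 18.8 CPM in dataset B. All 6 WT libraries lay below the RM libraries in dataset A and above them in dataset B, at -0.51 and 0.99 with a difference of -1.51 ± 0.18 (SE, adjusted p = 3.2e-06). Scd1, the desaturase that turns saturated into monounsaturated fatty acids, had 33.2, 40.9 and 45.0 CPM in WT and 29.7, 52.1 and 62.6 CPM in RM of dataset A, and 113, 145 and 170 against 63.1, 84.5 and 107 CPM in dataset B. Its values were -0.42 and 0.75 (adjusted p of the difference 1.2e-05). Kitl, the ligand of the KIT receptor, had -0.52 and 0.76. Cholesterol synthesis genes, which share sterol-responsive control with Scd1, went the same way. Of 21 tested, 0 were called higher and 6 lower in dataset A (median -0.27), against 8.74% and 6.95% of all features. In dataset B 8 were called higher and 0 lower (median 0.25), against 7.12% and 9.26%. The interaction test was passed by 9 (7.88% of all features did). Without the 3 RM palmitate libraries 10 were called lower in dataset A and 3 higher in dataset B. Dhcr7 had -0.69 and 0.67, Msmo1 -0.41 and 0.51, and Idi1 -0.34 and 0.57. Among noncoding genes H19, an imprinted lincRNA, had 1.21 and -1.27 (adjusted p of the difference 0.00106).

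Some of the widest members changed in size but not in sign. Car5b, a mitochondrial carbonic anhydrase (mm9 chr X, 160414754 to 160465929, minus strand), had 20.2, 56.6 and 80.8 CPM in WT and 0, 2.57 and 4.25 CPM in RM of dataset A, and 5.73, 7.90 and 9.56 against 1.67, 3.60 and 5.47 CPM in dataset B. No RM library reached a WT library in either dataset, yet the difference of 4.44 in dataset A was 3.34 larger than that of 1.09 in dataset B (adjusted p = 4.3e-05). Tmem69 had 3.69 and 0.73 (adjusted p of the difference 4.2e-05). Lars2, the mitochondrial leucyl-tRNA synthetase (mm9 chr 9, 123276058 to 123371782, plus strand), did change sign and was far more abundant. It was at 61883, 148095 and 187591 CPM in WT and 20253, 25496 and 29739 CPM in RM of dataset A. In dataset B it was at 19151, 22918 and 24590 against 13427, 17757 and 36257 CPM. Its genotypes were apart in dataset A and overlapped in dataset B, where mock had 0.71 and palmitate -0.47. It was called in the average (1.24 ± 0.22 SE, adjusted p = 0.000224) without being a member. The difference between datasets was 2.24 (adjusted p = 0.00191). Whether counts this high come only from its messenger RNA was not tested.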

How the data were processed

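PKR-immunoprecipitated RNA from mouse embryonic fibroblasts was measured in 24 libraries of datasets A and B, 3 per genotype and treatment; dataset C, with 1 library per group, was not used here. The deposited tables give read counts per feature, and the unit is raw counts, not normalized, per the file headers. Per the submitters' processing notes, CASAVA 1.7.0 and 1.8.2, Novoalign and the genome build mm9 were used; no source used here gives the counting program or its use of strand. The tables also hold 60 value columns that were not used.

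The 4 tables were joined by feature name (30210 features). Features were filtered with filterByExpr (minimum count 10), scaled with TMM and tested with edgeR 4.0.16 (quasi-likelihood, robust, 8 group means, R 4.3.3, limma 3.58.1), two-sided, with Benjamini-Hochberg adjustment over all 12683 tested features and a threshold of 0.05. Each log2 value is WT over RM, and the average weighs the 4 strata equally. The groups of samples come from the labels, and with labels as the only source p-values measure the spread between these libraries. RNA classes come from the GENCODE release 21 annotation, in which 25755 of 29777 Ensembl identifiers were found. Promoters and mature miRNAs come from RefSeq on GRCm38.p6. The fit was tested on simulated data.

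Members, gene lists and tests were chosen with earlier results of these data known. Named features are the 12 highest and 12 lowest average log2 values among called features of 1 sign with no overlap of libraries (CPM) in any stratum, a mean of at least 10 counts on the higher side and a gene symbol; the members of a list with the smallest p, at most 4 a list; the 8 highest and 8 lowest interaction values among features called in opposite directions; and Eif2ak2, Lars2 and Ifit1. Other members of lists, and the 12 features called in each stratum, were named after their values were seen. Class shares are sums of counts over each library's total. Alternatives were DESeq2 1.42.0, RLE or total-count scaling, other filters, a replicate block, an additive design, each dataset fitted alone, and leaving libraries out.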

Additional observations from a re-analysis of the deposited data

Results flagged for a closer look

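The genotype difference differed between datasets A and B, by the interaction test, for 1000 features (7.88% of those tested). Those of them named by the rule are given here as the log2 (WT / RM) of dataset A minus that of dataset B. Among features with the larger or positive value in dataset A these were Gm25687 (5.77), chr7.tRNA86-SeCTCA (3.998), Gm24812 (3.93), chr14.tRNA359-GluTTC (3.69), Rn7s6 (3.68), chr13.tRNA84-AspGTC (3.47), Gm22567 (3.43), Car5b (3.34), chr1.tRNA1547-GluTTC (3.33), Tmem69 (2.97), Lars2 (2.24), Ifit1 (1.63) and AW551984 (0.83). Car5b, Tmem69, Ifit1 and AW551984 kept 1 sign in all strata, Lars2 changed sign in palmitate of dataset B, and the others were called in opposite directions. With the larger value in dataset B these were Cyren (-1.78), Angptl2 (-1.51), Kitl (-1.27), Prelp (-1.19), Rab32 (-1.17), Scd1 (-1.16), D17H6S56E-5 (-1.11) and Fut8 (-1.001), each called lower with WT in dataset A and higher in dataset B.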

How the results depend on the processing

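Counts of called features stayed within 1.5 times the value in the report under RLE size factors and the stricter filter. With total-count scaling the average called 2060 features, the interaction by dataset 2641, the interaction by treatment 22, mock and palmitate of dataset A 359 and 1142 and mock of dataset B 678; features of 1 sign were 2253, of which 1246 called, and 180 were called in both datasets with the same sign and 102 with opposite signs. Under it the medians also changed sign for growth factors in dataset B (0.10), the fatty acid response in dataset A (-0.12), chromosome 18 in dataset B (0.041) and chromosome 19 in dataset A (-0.21). Each stayed on its side of the all-feature median, which that scaling also shifted. Without RM palmitate replicate 2 of A and replicates 2 and 3 of B, dataset B called 1019, mock of dataset A 1185 and palmitate of dataset B 4, 32 features were called in opposite directions and 361 had no overlap, and the dataset B medians of interferon-stimulated genes (-0.079) and mitochondrial tRNAs (0.38) reversed. The interaction by treatment had 45 calls with DESeq2, 13 with no filter and 1 with the replicate block. Dataset A fitted alone called 424 in mock and 388 in palmitate. The cause was not tested.

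Leaving out 1 library at a time gave 2740 to 3664 calls in the average, 1444 to 2470 in dataset A, 1437 to 2492 in dataset B, 800 to 1312 for the interaction by dataset, 0 to 35 by treatment, and in the strata 333 to 1101 (mock A), 353 to 1068 (palmitate A), 467 to 1777 (mock B) and 150 to 1496 (palmitate B). It gave 3509 to 4037 features of 1 sign, 1951 to 2576 of them called, 1055 to 1801 calls of dataset A with the same sign in dataset B, 274 to 555 called in both, 41 to 92 called in opposite directions and 161 to 252 without overlap. Where 1 library was left in a group, it is assumed to vary like the others. Among 190 single features, 5840 of 6061 values kept direction and call, 185 lost and 23 gained the call, and 13 reversed, all for Sox9, whose average was 0.01: -0.00786 with DESeq2, -0.047 with total counts, -0.000589 with the stricter filter, -0.074 without the 3 libraries, and -0.033 to 0.086 leaving out 1 library.

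Replicate numbers did not pair the libraries: the correlation of deviations was -0.17 to 0.27 over 36 pairs of the same number, 9 of them over 0.1. With the replicate block the average called 3148 features, dataset A 1852, dataset B 2163 and the interaction by dataset 1091, and no other count moved by over 1.5 times except that by treatment. Depth limits low features most in RM palmitate replicate 2 of dataset A.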
